A study of Mus musculus with 35 samples.

Results

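The genes described here are 9 named for type 2 inflammation: Il33, Il1rl1, Il4ra, Il13ra2, Ccl11, Ccl17, Ccl24, Retnla and Arg1. They were taken by gene symbol from the array's annotation, and the brightest probe set stood for a gene. The annotation used here listed no probe set with the symbol Il1rl1, the receptor of IL-33, so that gene was not analysed here. The other 8 had 1 probe set each, and they are 8 of 17097 genes measured. They were set beside genes of mucous cells, to ask whether type 2 signals accompany them after styrene inhalation.

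Type 2 inflammation is the airway response known from allergy, parasite infection and epithelial injury. IL-33, the product of Il33, is an alarmin stored in the nuclei of epithelial and other barrier cells and released when they are damaged. Through Il1rl1 it makes group 2 innate lymphoid cells, T helper 2 cells and mast cells secrete interleukins 4, 5 and 13. Interleukins 4 and 13 share the receptor chain Il4ra and the transcription factor Stat6. In the lung they induce eosinophil and T cell attracting chemokines, the macrophage products Retnla and Arg1, and mucous metaplasia of the airway epithelium, in which cells come to express Clca1, Agr2 and mucins.

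The samples were whole lungs of adult male wild-type C57BL/6 mice, 5 arrays at each of 0, 1, 5, 10, 20, 40 and 120 ppm styrene, 35 in all. Styrene is a volatile monomer that cytochromes of mouse club cells oxidise to a reactive epoxide. Each mouse was exposed once, for 6 h, to styrene or to air alone at 0 ppm, and the lung was taken the next morning. Other cells and secretions of the lung were therefore measured together with epithelium, and more cells of a type and more RNA per cell cannot be told apart. The arrays carry biological replicate numbers, but 1 array at 1 ppm and 1 at 5 ppm have the same animal number in their titles.

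Values are log2 signals of Affymetrix HT MG-430 PM arrays, on which 1 unit is a factor that doubles the signal. A fold compares 1 gene between doses, and levels of different genes were not compared. The highest of 23 nonspecific-hybridisation controls on an array served as its floor, at 4.57 to 6.43 on the arrays of 0 to 40 ppm and 6.71 to 7.36 at 120 ppm. It was the same control on every array, and the second highest lay at 3.76 to 5.08. Signals below the floor are given as measured, and a fold against them is written as "at least". The 120 ppm arrays also stood apart in poly-A spike-in signal (7.93 to 8.81, against 6.1 to 7.06 at 0 to 40 ppm).

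Type 2 genes responded most broadly at 10 and 20 ppm. At 1 ppm 0 of the 8 passed an adjusted p of 0.05 in limma's moderated test, where 0% of all genes were higher and 0% lower. At 5 ppm 2 rose and 0 fell, against 1.13% of all genes higher and 0.0234% lower. At 10 ppm 5 rose (Il33, Ccl11, Ccl17, Ccl24 and Retnla) and 0 fell, against 5.17% and 6.62%. At 20 ppm 5 rose, with Il4ra in place of Ccl24, against 6.45% higher and 6.74% lower overall. At 40 ppm 4 rose (Il33, Il4ra, Ccl17 and Retnla), against 7.69% and 5.04%. At 120 ppm 3 rose (Il4ra, Il13ra2 and Ccl17) and 0 fell, where 42.9% of all genes were higher and 31.9% lower, so a call there says little by itself. With the poly-A spike-in signal as a covariate, 1 of the 3 (Il4ra) was called. The median difference of the 8 genes from 0 ppm was -0.07, 0.12, 1.7, 1.03, 0.52 and 0 from 1 to 120 ppm, against medians over all genes of -0.014, 0.001, -0.024, -0.016, 0.011 and 0.155.

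The plot of signals by dose shows 3 shapes among these genes. Il33 and Retnla had risen at 5 ppm and were high over a wide middle range. Ccl11 and Ccl24 had a narrow maximum at 10 ppm. Il4ra and Ccl17 were still high at 120 ppm.

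**Figure D1:**
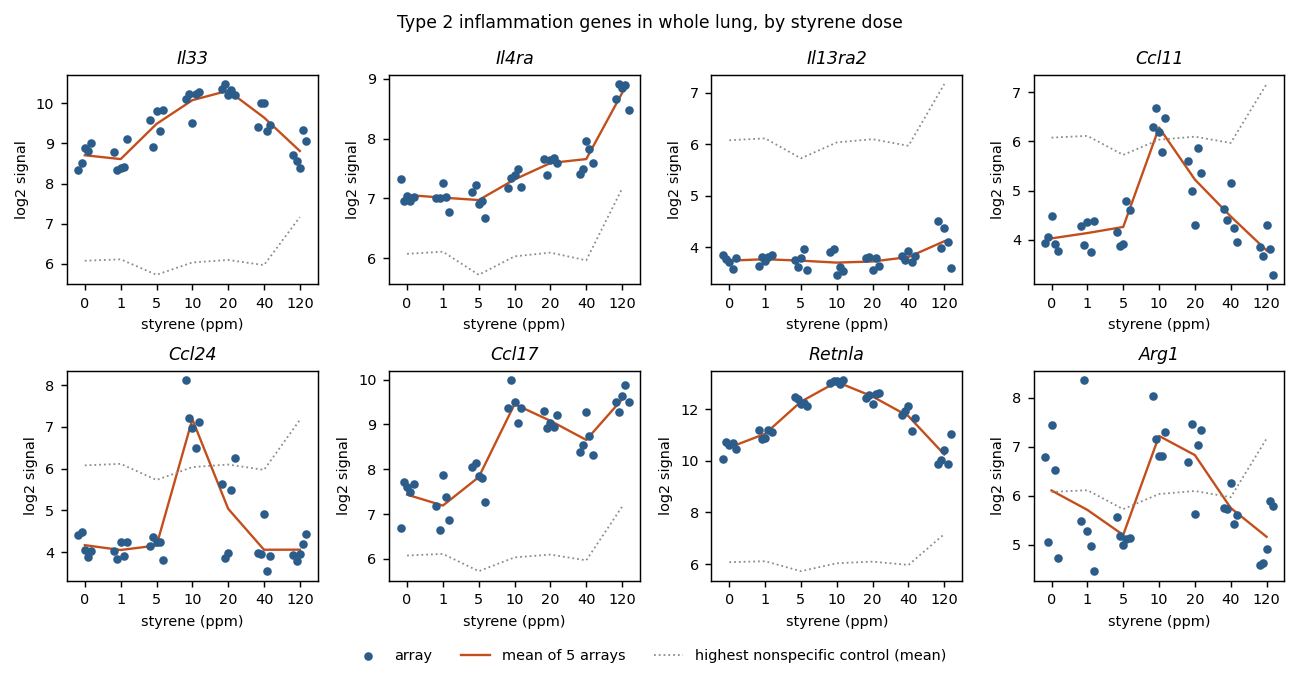
Log2 signal of 8 type 2 genes (vertical axis) on each of 35 whole-lung arrays, by styrene dose in ppm (horizontal axis, doses evenly spaced); points are arrays, the line joins the means of 5 arrays, and the dotted line is the mean of the highest nonspecific-hybridisation control. Ccl11 and Ccl24 rise above the control at 10 ppm, Il13ra2 stays below it at every dose, and at 120 ppm the arrays of Il33 and Retnla overlap those at 0 ppm.

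Il33 (probe set 1416200_PM_at; chromosome 19, 29925113 to 29960718 in GRCm38.p6), the alarmin, was bright on every array and had a broad maximum. On the 5 arrays of each dose its log2 signal was 8.33, 8.51, 8.88, 8.8 and 9.01 at 0 ppm, 8.79, 8.33, 8.4, 8.42 and 9.11 at 1 ppm and 9.58, 8.92, 9.8, 9.3 and 9.83 at 5 ppm. It was 10.11, 10.24, 9.52, 10.24 and 10.28 at 10 ppm and 10.35, 10.48, 10.22, 10.33 and 10.2 at 20 ppm, and then 9.41, 10.02, 10.02, 9.32 and 9.46 at 40 ppm and 8.72, 8.56, 8.39, 9.34 and 9.05 at 120 ppm. All arrays of 10, 20 and 40 ppm lay above all those of 0 ppm, while the arrays of 120 ppm overlapped them. Il33 rose 1.72-fold at 5 ppm (log2 difference 0.78, SE 0.19, adjusted p = 0.0271), 2.59-fold at 10 ppm (adjusted p = 3.56e-06), 3.06-fold at 20 ppm (adjusted p = 2.37e-07) and 1.92-fold at 40 ppm (adjusted p = 0.000797). The 5 ppm call was lost on leaving out any 1 of 5 ppm replicates 1, 3 and 5 or of 0 ppm replicates 1 and 2, with differences of 0.69 to 0.76. At 120 ppm the difference from 0 ppm was 0.11 (adjusted p = 0.611), and against 40 ppm Il33 fell by 0.83 (adjusted p = 0.000306). Both depended on the processing. With each array centred on its median, the difference from 0 ppm was 0.5 and passed (adjusted p = 0.0164). With the poly-A signal as a covariate, the difference from 40 ppm was -0.02 (adjusted p = 0.983). In order of their means, the doses ran 20, 10, 40, 5, 120, 0 and 1 ppm, and each overlapped the next in range.

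Il4ra (1423996_PM_a_at; chromosome 7, 125552271 to 125579474), the chain through which interleukins 4 and 13 both signal, went up with dose and was highest at 120 ppm. Its signal was 7.32, 6.96, 7.04, 6.95 and 7.02 at 0 ppm, 7.01, 7, 7.26, 7.03 and 6.77 at 1 ppm, 7.1, 7.22, 6.91, 6.96 and 6.68 at 5 ppm and 7.17, 7.34, 7.39, 7.49 and 7.2 at 10 ppm. It was 7.66, 7.39, 7.64, 7.68 and 7.59 at 20 ppm and 7.41, 7.5, 7.96, 7.82 and 7.6 at 40 ppm, and it reached 8.66, 8.91, 8.85, 8.9 and 8.48 at 120 ppm. The 120 ppm arrays were clear of all others, and the neighbouring doses below them overlapped. Il4ra rose 1.45-fold at 20 ppm (adjusted p = 0.000943), 1.52-fold at 40 ppm (adjusted p = 0.00026) and 3.25-fold at 120 ppm (log2 difference 1.7, SE 0.11, adjusted p = 7.05e-15). Its difference at 10 ppm was 0.26 (adjusted p = 0.143). Between 120 and 40 ppm the difference was 1.1 (adjusted p = 1.75e-10), or 0.4 (adjusted p = 0.229) with the poly-A signal as a covariate.

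Il13ra2 (1422177_PM_at; chromosome X, 147383478 to 147429192), a high-affinity receptor that binds interleukin 13 and is known chiefly as a decoy, was dim throughout. All 35 arrays gave 3.47 to 4.52, under the highest control and above the median control of each array. The 120 ppm arrays were at 4.52, 3.99, 4.38, 4.1 and 3.61, and the means of the other doses were 3.71 to 3.81. The 120 ppm difference from 0 ppm was 0.38 (SE 0.12, adjusted p = 0.00474), with no fold given because both groups were below the floor. It was 0.18 (adjusted p = 0.187) when the arrays were quantile normalised again. Over all genes the median at 120 ppm was itself 0.155 above 0 ppm, and 0.55 above when each array was centred on its median.

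Ccl24 (1450488_PM_at; chromosome 5, 135569935 to 135573123) and Ccl11 (1417789_PM_at; chromosome 11, 82057832 to 82062955) are the eotaxins, chemokines that draw eosinophils through Ccr3. Both had their maximum at 10 ppm. Ccl24 was 8.11, 7.21, 6.97, 6.5 and 7.11 at 10 ppm, all above the floor, against 4.4, 4.47, 4.05, 3.88 and 4.02 at 0 ppm, all below it. It rose at least 2.15-fold there (log2 difference 3.02, SE 0.31, adjusted p = 1.27e-08). At 20 ppm its arrays split, with 5.62, 5.48 and 6.26 on replicates 1, 4 and 5 and 3.85 and 3.97 on replicates 2 and 3. That difference from 0 ppm was 0.87 (adjusted p = 0.0604), and it was called without replicate 2 (1.17) or replicate 3 (1.14). At the other doses every array of Ccl24 lay between 3.54 and 4.9, so the 10 ppm arrays were clear of every other dose.

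Ccl11 was 3.93, 4.06, 4.48, 3.91 and 3.77 at 0 ppm, 4.29, 3.89, 4.36, 3.76 and 4.39 at 1 ppm and 4.15, 3.87, 3.91, 4.78 and 4.6 at 5 ppm. It was 6.29, 6.67, 6.2, 5.78 and 6.47 at 10 ppm and 5.6, 4.99, 4.3, 5.87 and 5.36 at 20 ppm, and 4.63, 4.4, 5.15, 4.25 and 3.95 at 40 ppm and 3.85, 3.67, 4.31, 3.81 and 3.29 at 120 ppm. All 10 ppm arrays were above all 0 ppm arrays, and 3 of them were above the floor. It rose at least 1.15-fold at 10 ppm (log2 difference 2.25, SE 0.24, adjusted p = 2.63e-08) and also rose at 20 ppm (1.19, adjusted p = 0.000642), where the floor allows no fold. Its difference from 0 ppm was 0.45 at 40 ppm (adjusted p = 0.263) and -0.24 at 120 ppm. Against 40 ppm, Ccl11 fell by 0.69 at 120 ppm (adjusted p = 0.0116), but by 0.52 (adjusted p = 0.0564) without 40 ppm replicate 3.

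Ccl17 (1419413_PM_at; chromosome 8, 94809380 to 94812038), a ligand of Ccr4 that attracts T helper 2 cells and is made by dendritic cells, had a plateau with 2 high ends. Its signal was 6.69, 7.72, 7.6, 7.5 and 7.66 at 0 ppm, 7.17, 6.64, 7.88, 7.39 and 6.87 at 1 ppm and 8.05, 8.15, 7.84, 7.81 and 7.27 at 5 ppm. It was 9.37, 9.98, 9.51, 9.04 and 9.36 at 10 ppm and 9.3, 8.92, 9.04, 8.94 and 9.2 at 20 ppm, and 8.39, 8.54, 9.28, 8.74 and 8.32 at 40 ppm and 9.49, 9.27, 9.64, 9.89 and 9.51 at 120 ppm. Every array from 10 ppm upward was above every array at 5 ppm and below. Ccl17 rose 4.05-fold at 10 ppm (log2 difference 2.02, SE 0.21, adjusted p = 1.69e-08), 3.13-fold at 20 ppm (adjusted p = 8.54e-07), 2.33-fold at 40 ppm (adjusted p = 0.000105) and 4.38-fold at 120 ppm (adjusted p = 8.43e-11). It was 1.88-fold higher at 120 than at 40 ppm (adjusted p = 0.000313). With the poly-A signal as a covariate the 120 ppm difference from 0 ppm was 1.03 (adjusted p = 0.0872) and the one from 40 ppm turned to -0.21 (adjusted p = 0.79).

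Retnla (1449015_PM_at; chromosome 16, 48842609 to 48844461), which encodes the secreted protein RELM-alpha or Fizz1 of alternatively activated macrophages and airway epithelium, was very bright and rose at 5, 10, 20 and 40 ppm. Its signal was 10.06, 10.74, 10.63, 10.68 and 10.46 at 0 ppm, 11.2, 10.86, 10.88, 11.18 and 11.11 at 1 ppm and 12.47, 12.41, 12.2, 12.25 and 12.12 at 5 ppm. It was 13.01, 13.09, 13.09, 12.98 and 13.11 at 10 ppm and 12.45, 12.55, 12.19, 12.6 and 12.64 at 20 ppm, and 11.76, 11.94, 12.12, 11.16 and 11.65 at 40 ppm and 9.88, 10.03, 10.42, 9.86 and 11.03 at 120 ppm. All 5 arrays of 1 ppm were above all 5 of 0 ppm, although the difference of 0.53 did not pass (adjusted p = 0.447). Retnla rose 3.42-fold at 5 ppm (log2 difference 1.78, SE 0.17, adjusted p = 4.15e-09), 5.82-fold at 10 ppm (adjusted p = 3.97e-13), 3.92-fold at 20 ppm (adjusted p = 1.93e-10) and 2.32-fold at 40 ppm (adjusted p = 3.65e-06). The 10 ppm arrays were clear of all others, and above a signal of about 12 an array may saturate, which would understate these folds. That level was assumed and not measured here, and the highest signal on these arrays was 13.97. At 120 ppm the difference from 0 ppm was -0.27 (adjusted p = 0.148), and without 120 ppm replicate 5 it passed at -0.46 (adjusted p = 0.0055).

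Arg1 (1419549_PM_at; chromosome 10, 24915207 to 24927470), the arginase of alternatively activated macrophages and of hepatocytes, passed in no comparison of 2 doses. Its signal was 6.78, 5.06, 7.45, 6.52 and 4.72 at 0 ppm, 5.49, 8.35, 5.28, 4.97 and 4.46 at 1 ppm and 5.57, 5.18, 5, 5.11 and 5.14 at 5 ppm. It was 8.04, 7.16, 6.8, 6.8 and 7.29 at 10 ppm and 6.69, 7.46, 5.62, 7.04 and 7.33 at 20 ppm, and 5.75, 5.73, 6.25, 5.42 and 5.6 at 40 ppm and 4.58, 4.62, 4.92, 5.9 and 5.79 at 120 ppm. All 10 ppm arrays were above the floor, and the 0 ppm arrays were widely spread. The difference from 0 ppm was 1.11 at 10 ppm (SE 0.5, adjusted p = 0.17), 0.72 at 20 ppm (adjusted p = 0.422) and -0.94 at 120 ppm (adjusted p = 0.0866).

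Hepatocyte transcripts stood out on some of these arrays. Alb, which encodes serum albumin, was 11.19 and 10.47 on 0 ppm replicates 3 and 4, 11.75 on 1 ppm replicate 2 and 10.72 on 20 ppm replicate 2. The mean of 9 hepatocyte markers was 7.77 to 9.17 on those 4 arrays and 3.9 to 5.67 on the other 31. Arg1 was 8.35 on 1 ppm replicate 2, where the other arrays of that dose had 4.46 to 5.49, and the 10 ppm arrays had hepatocyte means of 4.09 to 4.5. At 0 ppm Arg1 was 7.45 and 6.52 on replicates 3 and 4, but also 6.78 on replicate 1, where the hepatocyte mean was 4.12. With the hepatocyte mean as a covariate, Arg1 differed from 0 ppm by 1.77 at 10 ppm (adjusted p = 0.00145) and 40 ppm from 10 ppm by -1.48 (adjusted p = 0.0104). The part of hepatocyte RNA in the Arg1 signal of each array was not tested further.

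**Figure D2:**
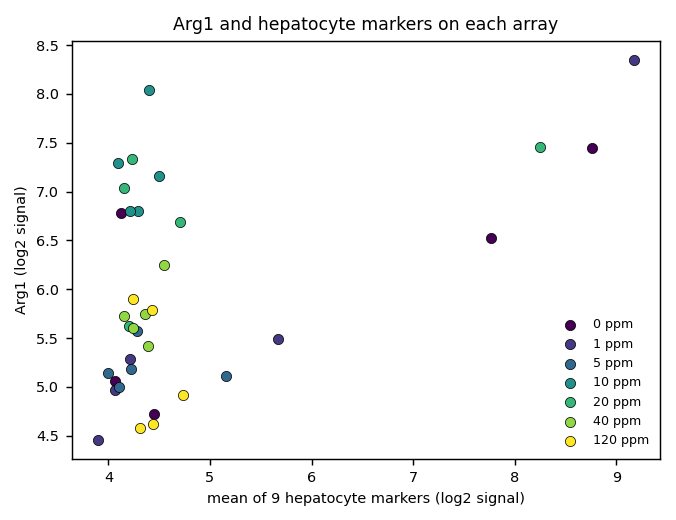
Log2 signal of Arg1 (vertical axis) against the mean log2 signal of 9 hepatocyte markers (horizontal axis) on each of 35 arrays, coloured by styrene dose in ppm. The 4 arrays on the right have hepatocyte means of 7.77 to 9.17, and the 10 ppm arrays combine Arg1 at 6.8 to 8.04 with hepatocyte means of 4.09 to 4.5.

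**Figure D3:**
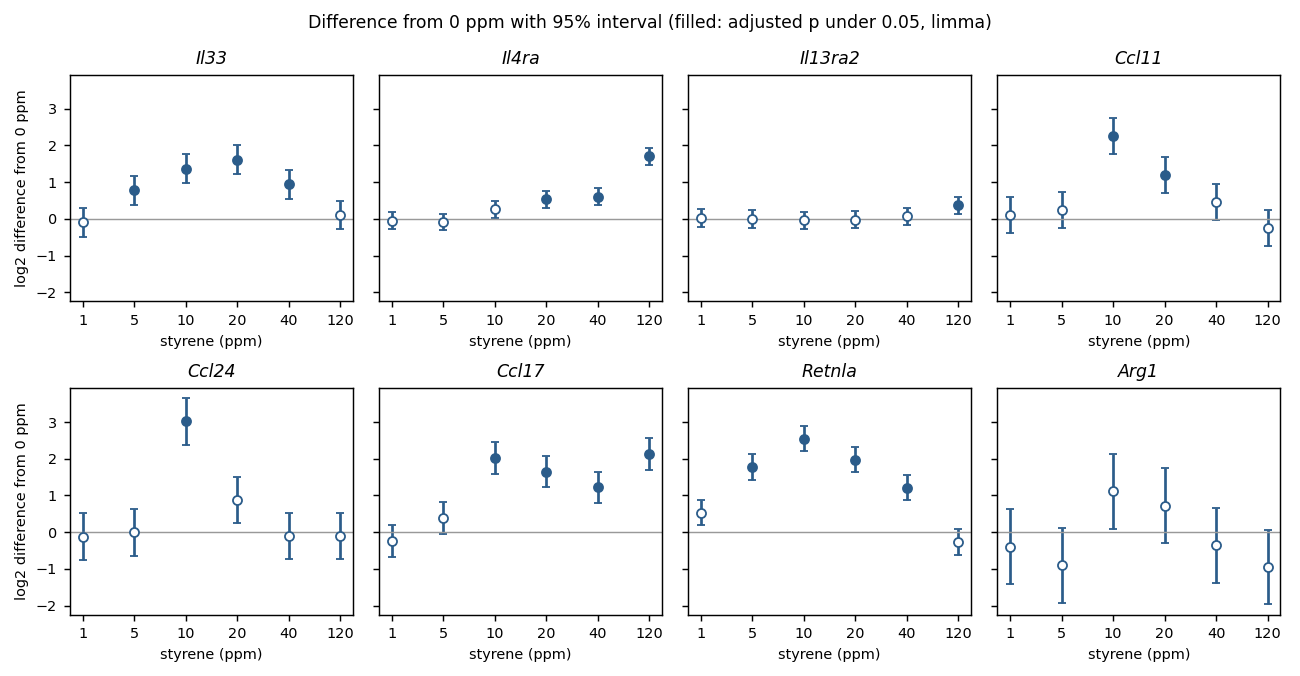
Log2 difference of each dose from 0 ppm (vertical axis) for 8 type 2 genes, by styrene dose in ppm (horizontal axis), with limma's unadjusted 95% interval from 5 arrays a dose; filled points passed an adjusted p of 0.05 over 17097 genes. Differences at 10 ppm reach 3.02 for Ccl24 and 2.54 for Retnla, and at 120 ppm Il4ra, Il13ra2 and Ccl17 are filled.

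A comparison of 40 with 10 ppm was added after the levels had been seen. At 40 ppm against 10 ppm 4 of 8 fell and 0 rose, where 4.25% of all genes were higher and 1.64% lower. Ccl24 fell at least 2.32-fold (log2 difference -3.13, adjusted p = 1.51e-07), Ccl11 at least 1.24-fold (-1.8, adjusted p = 1.71e-05), Retnla by 1.33 (adjusted p = 1.05e-05) and Ccl17 by 0.8 (adjusted p = 0.0183). The Ccl17 call was lost without 40 ppm replicate 1 or 5 or 10 ppm replicate 2. Il33 differed by -0.43 (adjusted p = 0.197), Arg1 by -1.47 (adjusted p = 0.0766) and Il4ra by 0.34 (adjusted p = 0.0651). The median over the 8 genes was -1.06, against 0.036 over all genes. At 120 against 40 ppm 3 rose and 3 fell (Il33, Ccl11 and Retnla), where 39.8% of all genes were higher and 31.1% lower, and Retnla fell by 1.48 (adjusted p = 1.99e-09).

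Over all doses together, all 8 measured genes passed limma's F test, which 76.3% of all genes passed. A straight slope against log2(dose + 1 ppm) was called for 3, all upward, against 35.6% of genes upward and 28% downward. They were Ccl17 (0.341 per unit), Il4ra (0.225) and Il13ra2 (0.039). Retnla and Ccl24, with maxima at 10 ppm, had slopes of 0.026 (adjusted p = 0.769) and 0.022 (adjusted p = 0.827). Without the 120 ppm arrays Retnla (0.319, adjusted p = 0.000244), Il33 (0.285, adjusted p = 6.95e-06) and Ccl11 (0.208, adjusted p = 0.0381) had called slopes, and that of Il13ra2 was 0.004 (adjusted p = 0.887).

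Of 13 mucous cell genes 7 had their highest mean at 10 ppm, among them Clca1, Agr2 and Slc26a4. Muc5b and Tff2 were highest at 5 ppm and the other 4, Muc5ac included, at 120 ppm. How many of all genes were highest at each dose was not counted, so these counts do not set the list apart. Ern2 (highest at 10 ppm), Tff2 and Gcnt3 (highest at 120 ppm) did not pass the F test (adjusted p = 0.312, 0.159 and 0.0508). Ern2 and Foxa3, also highest at 10 ppm, were below the floor on every array. Clca1, a secreted protein of mucous cells that interleukin 13 induces, was 10.17, 10.85, 11.22, 9.8 and 11.69 at 10 ppm, against 4.09, 4.28, 5.44, 5.78 and 3.92 at 0 ppm. It rose at least 25.5-fold (log2 difference 6.05, SE 0.83, adjusted p = 2.69e-06), and at 40 ppm it was back at 3.97, 4.16, 5.54, 3.96 and 4.34, at least 27.5-fold lower than at 10 ppm (adjusted p = 1.36e-05). Agr2, a protein disulphide isomerase needed to fold mucins, rose at least 2.16-fold at 5 ppm (adjusted p = 0.00332), at least 4.17-fold at 10 ppm (adjusted p = 1.4e-05) and at least 1.47-fold at 20 ppm (adjusted p = 0.00556). Slc26a4, the anion exchanger pendrin, rose at least 6.47-fold at 10 ppm (adjusted p = 1.18e-09), 3.76-fold at 20 ppm (adjusted p = 1.34e-07) and 1.71-fold at 40 ppm (adjusted p = 0.000158), the last 2 also as lower bounds. Muc5ac, the main secreted mucin of mucous metaplasia, was below the floor on nearly all arrays, with a 10 ppm difference of 0.11 (adjusted p = 0.732). Of 13 mucous cell genes 5 rose at 10 ppm (Clca1, Agr2, Foxa3, Slc26a4 and Fcgbp), compared with 1 at 5 ppm and 2 at each of 20 and 40 ppm, and 0 fell. Averaging the probe sets of a gene left 1 at 40 ppm. Over all genes 1.13%, 5.17%, 6.45% and 7.69% were higher at 5, 10, 20 and 40 ppm. At 120 ppm 6 of the 13 rose (Muc5ac, Spdef, Foxa3, Fcgbp, Gcnt3 and Creb3l1) and Muc5b fell, where 42.9% of all genes were higher and 31.9% lower. Muc5ac, Spdef, Foxa3 and Gcnt3 were below the floor on all arrays of both doses. With the poly-A signal as a covariate, 0 of the 13 rose and 0 fell at 120 ppm.

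Within a dose, high type 2 and mucous signals did not always fall on the same arrays. At 5 ppm replicate 2 Clca1 was 10.24, while Ccl24 was 4.35 and Ccl11 3.87 on that array. At 20 ppm Clca1 was 9.59 and 8.75 on replicates 2 and 4 and 4.91, 4.43 and 3.77 on the other 3. Ccl24 was above the floor on replicate 5 alone, where Clca1 was 3.77, and was 3.85 on replicate 2, where Clca1 was highest. On replicate 4, where Clca1 was 8.75, Ccl24 was 5.48, under the floor of 5.69 but above all 0 ppm arrays (3.88 to 4.47). On replicate 1, where Clca1 was 4.91, Ccl24 was 5.62, also under the floor. Ccl11 was above the floor on replicate 4 alone (5.87). Agr2 was 8.37 and 7.92 on replicates 2 and 4, the arrays with high Clca1, and 6.67, 5.46 and 4.76 on the others. At 40 ppm high signals did coincide, on replicate 3. Clca1 (5.54, below the floor) and Slc26a4 (8.25) were at their highest of that dose there, though Agr2 (6.44) was not. Ccl17 (9.28), Retnla (12.12), Il4ra (7.96) and Arg1 (6.25) were also at their highest of that dose. So were Ccl11 (5.15) and Ccl24 (4.9), both below the floor.

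**Figure D4:**
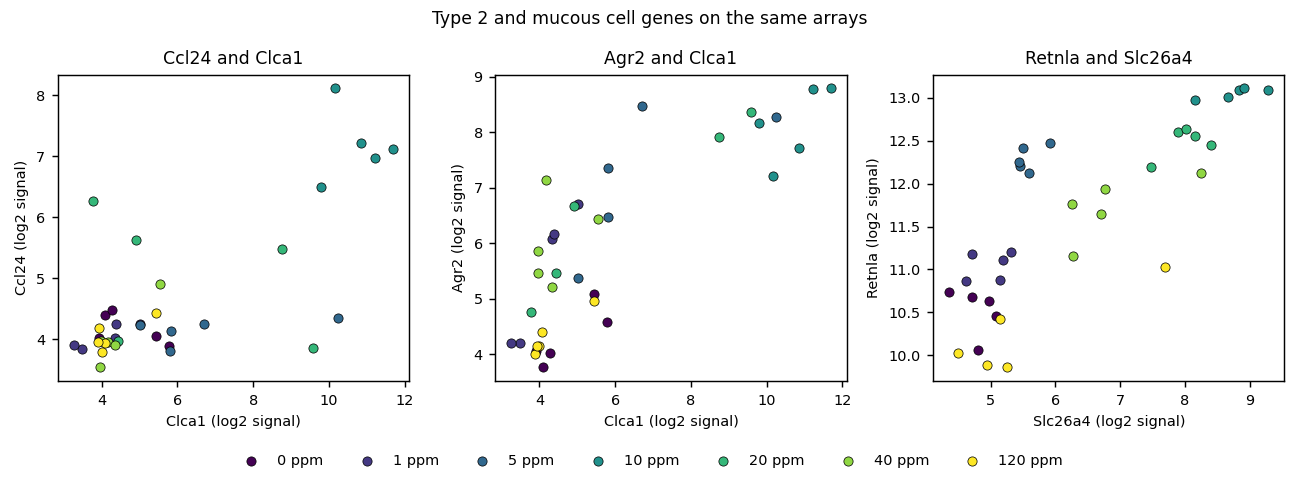
Log2 signals of pairs of genes on the same 35 arrays, coloured by styrene dose in ppm: Ccl24 against Clca1 (left), Agr2 against Clca1 (middle) and Retnla against Slc26a4 (right), the second gene on the horizontal axis. High Clca1 comes with Ccl24 at 4.35 on 5 ppm replicate 2 and at 3.85 and 5.48 on 20 ppm replicates 2 and 4. Agr2 is at 7.22 or above on every array with Clca1 at 8.75 or above.

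To put a value on this, each gene was fitted with 1 mean per dose and the array's signal of a mucous gene as a covariate, an analysis added after the arrays' values had been seen. Such a slope compares arrays of the same dose. On Clca1, 0 of the 8 type 2 genes had a slope past the threshold (0 also at an unadjusted p under 0.05), against 0.0175% of all genes with a positive and 0% with a negative one. Ccl24 had a slope of -0.038 log2 units per unit of Clca1 (95% interval -0.174 to 0.097) and Retnla one of 0.066 (-0.003 to 0.135), so slopes within these intervals could not be told apart from none. Within a dose Clca1 varied most at 5 and 20 ppm (SD 2.06 and 2.68, against 0.66 to 0.85 at the other doses). At 0, 1, 40 and 120 ppm it was below the floor on every array. Slopes on Clca1 therefore rest chiefly on the arrays of 5 and 20 ppm. Agr2 had a slope of 0.548 on Clca1 (SE 0.078, adjusted p = 0.00114), the 1 call among 12 mucous genes, of which 8 had an unadjusted p under 0.05. On Agr2, 0 of 8 type 2 genes and 7 of 12 mucous genes were called, against 0.977% of all genes positive and 0% negative. Ccl11 had the 1 unadjusted p under 0.05 there, with a slope of 0.147 (adjusted p = 0.861).

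On Slc26a4 the result was different, with 1 of 8 type 2 genes and 0 of 12 mucous genes called, against 2.91% of all genes positive and 0.369% negative. At an unadjusted p under 0.05 there were 3 of 8 type 2 and 1 of 12 mucous genes, against 3297 of 17096 genes. The median slope of the 8 was 0.194, against 0.006 over all genes. Il33 had a slope of 0.21 (SE 0.085, adjusted p = 0.166) and Ccl24 one of 0.323 (SE 0.14, adjusted p = 0.196), neither called. Slopes of Il13ra2 (-0.085) and Il4ra (-0.032) were negative. The called gene, Retnla, had a slope of 0.298 (SE 0.062, adjusted p = 0.00949). The call, more than the size of the slope, rested on 120 ppm replicate 5. There Slc26a4 was 7.7 against 4.49 to 5.26 on the other arrays of that dose and Retnla 11.03 against 9.86 to 10.42. Without that array the slope was 0.225 (adjusted p = 1).

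The cytokines known to link Il33 to these targets were too dim to follow. Il4, Il5, Il9, Il13, Il25 and Tslp were measured out of 7 listed cytokines and alarmins, and 0 of 6 were called from 1 to 40 ppm. Il13 averaged 4.23 at 10 ppm against 4.32 at 0 ppm, and Il4, Il5 and Il13 were below the floor on every array. A small change of these genes would not be detectable at such signals. At 120 ppm Il4, Il5 and Il13 passed upward by 0.35, 0.5 and 0.44, still below the floor. Of 9 other receptors 0 were called from 1 to 40 ppm, and at 120 ppm 4 rose and 2 fell, where 42.9% of all genes were higher and 31.9% lower. Crlf2, a receptor chain for Tslp, rose 3.2-fold at 120 ppm (adjusted p = 3.91e-16), while Il13ra1, the chain that pairs with Il4ra, fell by 2.58 (adjusted p = 8.16e-12) to below the floor.

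Signalling genes included feedback inhibitors that moved with dose. Socs3, an inhibitor of cytokine receptor signalling, rose 2.6-fold at 10 ppm (adjusted p = 9.7e-07), 2.97-fold at 20 ppm, 3.01-fold at 40 ppm and 6.49-fold at 120 ppm (adjusted p = 9.67e-15). Of 8 signalling genes 3 rose at 10 ppm (Jak3, Socs1 and Socs3), where 5.17% of all genes were higher. Stat6, the factor through which Il4ra acts, averaged 6.84 at 10 ppm and 7.08 at 0 ppm and fell by 0.38 at 20 ppm (adjusted p = 0.0243). Stat6 is activated by phosphorylation, which arrays do not measure.

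Other genes known as type 2 targets rose in part. Of 16 measured, 2 rose at 5 ppm, 6 at 10 ppm and 3 at each of 20 and 40 ppm, while 0 fell. Over all genes 1.13%, 5.17%, 6.45% and 7.69% were higher at 5, 10, 20 and 40 ppm. Ccl8, a monocyte and T cell chemokine, rose at least 2.09-fold at 5 ppm and at least 3.83-fold at 10 ppm (log2 difference 2.11, SE 0.25, adjusted p = 2.5e-07). Ccl22, the other Ccr4 ligand, rose at least 2.68-fold at 10 ppm (adjusted p = 3.01e-07) and at least 2.66-fold at 120 ppm, the 2 doses at which Ccl17 was highest. Ccl7 differed by 2.67 at 10 ppm (adjusted p = 2.2e-08), where 3 of 5 arrays were above the floor. Mgl2, a lectin of alternatively activated macrophages, rose 1.74-fold at 10 ppm (adjusted p = 0.000304). The chitinase-like genes Chil3 and Chil4 were very bright, averaged 12.4 and 12.37 at 10 ppm against 12.29 and 12.17 at 0 ppm, and fell by 0.84 and 2.06 at 120 ppm. Both averaged above the assumed saturation level of about 12 already at 0 ppm, so a rise could have been missed. Whether they were near saturation was not tested.

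Among markers of cells that type 2 responses recruit, none rose at 10 ppm. Of 5 eosinophil markers 0 rose from 1 to 40 ppm. Epx and Prg2, which encode eosinophil granule proteins, were below the floor on every array, and Epx averaged 3.1 at 10 ppm and 3.16 at 0 ppm. The summed signal of the 5 ranged over 6.43 to 6.84 (log2) at 10 ppm, against 7.34 to 7.55 at 0 ppm. Its brightest gene, Siglecf, which alveolar macrophages also express, fell at least 1.9-fold at 10 ppm (adjusted p = 1.99e-07). Of 8 mast cell and basophil markers 0 were called from 1 to 40 ppm. Of 8 markers of T helper 2 and group 2 innate lymphoid cells 0 were called there either. The summed signals of these 2 lists at 10 ppm were 9.1 to 9.36 and 7.84 to 8.21, against 9 to 9.56 and 8.03 to 8.24 at 0 ppm. The brightest gene was Kit in the first sum (mean 9.04 at 10 ppm, 9.08 at 0 ppm) and Rora in the second (6.7 and 6.65). The other mast cell and basophil markers were below the floor on all arrays of both doses. So were Il5, Il13, Il17rb, Ptgdr2, Klrg1 and Icos. Flat sums therefore cannot show whether these cells became more numerous.

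Among resident cells, alveolar macrophage markers moved both ways. Of 8, Marco and Car4 rose at 10 ppm and Siglecf, Krt79 and Fabp1 fell, and the summed signal was 11.66 to 11.76, against 11.69 to 11.87 at 0 ppm. Of 6 monocyte and interstitial macrophage markers 0 were called at 10 ppm, with a summed signal of 9.93 to 10.36, against 9.6 to 10.22 at 0 ppm. Club cell markers, bright on every array, fell in 2 of 5 genes at 10 ppm (Scgb3a2 and Cyp2f2) and in all 5 at 40 and 120 ppm. Over all genes 6.62%, 5.04% and 31.9% were lower at 10, 40 and 120 ppm. Fibroblast markers, beside Ccl11, which fibroblasts can make, rose in 3 of 7 genes at 10 ppm, with Col1a1 1.95-fold higher (adjusted p = 1.08e-05), while Pdgfra fell by 0.46 (adjusted p = 0.0182). The 3 that rose were the collagen genes Col1a1, Col1a2 and Col3a1, and Col1a2 was below the floor on every array. At 10 ppm 5.17% of all genes were higher. Lum, Pi16 and Dcn were not called at 10 ppm, where Dcn averaged 9.53 against 10.1 at 0 ppm. Dcn fell at 20 and 40 ppm, by 0.66 and 0.84. The part of any of these cells in the type 2 genes was not tested.

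Promoters of Retnla, Ccl17 and Il33, which rose at 10 ppm or below, are shown beside that of Il4ra, which did not pass until 20 ppm. RefSeq promoters (GRCm38.p6, 250 bases before to 50 after a start) were available here for 6 of the 9 genes. Ccl11, Ccl24 and Arg1 had none. The letters searched, on both strands, were TTCNNNNGAA, the spacing known for Stat6, GAAANNGAAA, an interferon response element, and TATAAA. Capitals mark every match. The 4 below lie on the plus strand, at chr16:48842359-48842658 for Retnla, chr8:94810203-94810502 for Ccl17, chr19:29924863-29925162 for the first of 2 starts of Il33 and chr7:125552021-125552320 for Il4ra.
Retnla: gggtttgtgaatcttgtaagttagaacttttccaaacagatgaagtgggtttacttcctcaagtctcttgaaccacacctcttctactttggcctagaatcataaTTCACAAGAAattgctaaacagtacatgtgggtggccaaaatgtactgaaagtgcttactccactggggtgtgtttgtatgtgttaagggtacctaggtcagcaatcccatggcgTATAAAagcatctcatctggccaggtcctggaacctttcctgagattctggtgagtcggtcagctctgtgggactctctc
Ccl17: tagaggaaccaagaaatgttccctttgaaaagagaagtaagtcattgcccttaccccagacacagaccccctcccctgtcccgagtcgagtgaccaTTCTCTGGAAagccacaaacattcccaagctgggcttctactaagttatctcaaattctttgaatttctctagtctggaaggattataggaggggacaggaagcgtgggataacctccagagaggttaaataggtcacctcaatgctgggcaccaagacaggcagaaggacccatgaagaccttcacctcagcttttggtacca
Il33: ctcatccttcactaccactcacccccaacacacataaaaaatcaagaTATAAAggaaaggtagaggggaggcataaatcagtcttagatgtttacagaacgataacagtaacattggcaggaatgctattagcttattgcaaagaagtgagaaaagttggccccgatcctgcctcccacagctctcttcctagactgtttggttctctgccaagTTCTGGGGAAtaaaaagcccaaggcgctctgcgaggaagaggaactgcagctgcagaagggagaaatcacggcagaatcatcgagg
Il4ra: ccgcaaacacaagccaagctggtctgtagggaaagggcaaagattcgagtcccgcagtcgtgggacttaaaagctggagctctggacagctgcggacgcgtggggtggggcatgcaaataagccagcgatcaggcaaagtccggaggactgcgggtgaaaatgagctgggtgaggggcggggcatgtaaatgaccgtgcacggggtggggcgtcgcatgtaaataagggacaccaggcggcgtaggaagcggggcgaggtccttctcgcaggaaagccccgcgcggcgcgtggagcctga
The Stat6 spacing occurred at 145 bases before the start of Retnla, 154 before the start used for Ccl17 and 36 before the first start of Il33. That Ccl17 start is internal: its whole window lies within the gene's span of 94809380 to 94812038. No 2 matches overlapped. None of the letters occurred in the Il4ra window. Of 8 windows of these genes 3 held the Stat6 spacing, and those of Il13ra2, both starts of Il1rl1 and the second start of Il33 did not. Promoters were also searched for 6 of 13 mucous cell genes (Agr2, Bpifb1, Fcgbp, Foxa3, Slc26a4 and Spdef), and none held the Stat6 spacing. Over 32851 mouse promoters of this length the Stat6 spacing was found in 6.95%, the interferon element in 3.44% and TATAAA in 13.62%. A match describes letters and is not a site of binding.

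Genes with the dose pattern most like each type 2 gene were sought by Pearson correlation of signals over the 35 arrays, among 16645 genes, as a description in which arrays share their dose. Il33 was closest to Lilrb4a (r = 0.933), Ctps and Gja1 (both 0.882). Il4ra was closest to Cnn2, Fads3 and Wdr74 (all 0.977), which like it were highest at 120 ppm in mean. Ccl24 and Ccl11 were each among the 3 nearest of the other (r = 0.874), together with Aldh1a3, and Tfpi2 was nearest to Ccl11 (0.883). Ccl17 was closest to Lgals3 (0.942), Ccl22 (0.918) and S100a14 (0.905). Retnla was closest to Rnf213 (0.958), D17H6S56E-5 (0.958) and Spats2l (0.937), and Rnf213 averaged 8.75 at 0 ppm, 10.9 at 10 ppm and 8.58 at 120 ppm. Arg1 had no gene above 0.708 (Cyp7b1 and Tfpi2), and for Il13ra2, below the floor, the highest was 0.79.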

How the data were processed

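The deposited values were log2 signals per probe set that the authors had normalised. The submitters' processing notes name RMA and Partek, without settings. Scan dates and plates are not given in the sources used. The table held 45141 probe sets, 104 of them controls. The annotation listed 28898 with exactly 1 gene symbol and 551 with several, and 15588 were unlisted. The probe set with the highest mean stood for each of 17097 genes.

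A model with 1 mean per dose was fitted to all 35 arrays and all genes by lmFit and eBayes of limma 3.58.1, run in R 4.3.3, which left 28 residual degrees of freedom and added 4.62 from the prior. P-values were two-sided and adjusted by Benjamini-Hochberg over all genes of a comparison, with a threshold of 0.05, and SE is limma's. "Rose" and "fell" are used of genes past it. The slope used log2 of the dose plus 1 ppm. For a fold written as "at least", each dim array under its highest nonspecific-hybridisation control was raised to that control. Precision is set by the number of arrays, since arrays give no counts.

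The type 2 genes and the lists of other cytokines, receptors, signalling genes, targets, mucous cell genes and cell markers were chosen with earlier results of these data known. The rule for names was all members, Clca1, Muc5ac, Agr2 and Slc26a4, up to 4 called genes of each other list per direction and comparison, the 3 nearest genes by correlation, and Alb. Other genes named were chosen after their values were seen, as were the comparison of 40 with 10 ppm and the slopes within doses. Missing from the annotation used here were Areg, Il2rg, Il7r, Ear11 and some markers. Scripts were tested on simulated data. No pair of arrays was identical. Figures were drawn with Python 3.11.15, pandas 2.3.3, numpy 2.4.6 and matplotlib 3.10.9.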

Additional observations from a re-analysis of the deposited data

Results flagged for a closer look

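Single arrays stood far from the other 4 of their dose in 9 of 84 groups of 5 examined, by Dixon's ratio of gap to range. Chance alone would give about 1 in 20. Il33 was 9.52 on 10 ppm replicate 3, against 10.11 to 10.28 on the others. Il4ra was 7.39 on 20 ppm replicate 2, against 7.59 to 7.68, and 7.32 on 0 ppm replicate 1, against 6.95 to 7.04. Ccl17 was 6.69 on that same 0 ppm array, against 7.5 to 7.72. Arg1 was 8.35 on 1 ppm replicate 2, against 4.46 to 5.49, and that array also had the highest albumin signal. Of the mucous genes, Clca1 was 5.54 and Slc26a4 8.25 on 40 ppm replicate 3, against 3.96 to 4.34 and 6.26 to 6.77. Clca1 was 5.44 and Slc26a4 7.7 on 120 ppm replicate 5, against 3.89 to 4.08 and 4.49 to 5.26.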

How the results depend on the processing

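The counts of type 2 genes called at 10, 20 and 40 ppm against 0 ppm stayed within 1.5 times under every alternative run. At 5 ppm the 2 became 1, with Il33 lost, after centring arrays on their median, fitting only the groups compared, or leaving out both arrays of animal number 15. At 120 ppm the 3 became 5 with array weights or without 120 ppm replicates 4 and 5, where Retnla and Arg1 were called lower, and 1 with the poly-A signal as a covariate. That covariate also left 1 of 6 calls at 120 against 40 ppm, turned Ccl17 there to -0.21 and brought Il33 there to -0.02. It is nearly confounded with the 120 ppm group. Centring arrays on their median called Il33 higher at 120 than at 0 ppm (0.5, adjusted p = 0.0164). Array weights gave 7 in place of 4 calls at 40 against 10 ppm. The slope called 5 in place of 3 genes with array weights, without 120 ppm, or with the poly-A covariate, and on a scale of ppm Retnla turned to -0.011 per ppm (adjusted p = 0.00572). Within doses, the 1 call on Slc26a4 became 0 without the 120 ppm group, where the slope of Retnla was 0.236 (adjusted p = 0.887). Other causes of these changes were not tested.

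Leaving out each array in turn gave 0 to 0 calls at 1 ppm, 1 to 2 at 5 ppm, 5 to 5 at 10 ppm, 5 to 6 at 20 ppm, 4 to 4 at 40 ppm, 3 to 4 at 120 ppm, 5 to 6 at 120 against 40 ppm and 3 to 4 at 40 against 10 ppm. The F test gave 7 to 8, the slope 2 to 4, and the slopes within doses 0 to 0 on Clca1 and Agr2 and 0 to 1 on Slc26a4. With the replicate number as a block, counts stayed at 0, 2, 5, 5, 4 and 3 from 1 to 120 ppm and Il4ra was also called at 40 against 10 ppm (0.34, adjusted p = 0.0388). Same-numbered arrays were not treated as pairs, since 53 of 105 such pairs correlated over 0.1 and not all. Their mean correlation was 0.096, against -0.024 for other numbers, and 13 of 35 arrays correlated best with their own number, a hint from the data and not from the design.

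Over all genes, array weights called 43 at 1 ppm in place of 0 and 3586 at 10 ppm in place of 884 higher and 1132 lower. Median centring called 10650 genes higher and 4044 lower at 120 ppm, against 7342 and 5450. Il4, Il5, Il13, Il13ra2, Muc5ac and the eosinophil granule genes lay near background, which limits what could be detected for them.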
